A study of Mus musculus with 4 samples.

Results

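Neutrophils of the injured spinal cord at 3 days post injury (dpi) were described here from single-cell RNA sequencing of CD45+ cells, the immune cells that carry the leukocyte surface protein CD45. They were chosen by their transcripts, and 825 of the 9528 cells of the 3 dpi library that passed the cell filters met the rule, out of 28346 such cells in the series. A member held no fewer than 600 genes, with mitochondrial UMIs (unique molecular identifiers, each standing for 1 captured RNA molecule) making up 10% or less, and S100a8 and S100a9 together made up at least 0.2% of its UMIs. It also held a UMI of at least 3 of 7 granulocyte genes (Csf3r, Cxcr2, Il1r2, Hdc, G0s2, Mmp9, Retnlg), and no UMI of Csf1r (macrophages), Cd3e (T cells), Cd79a (B cells) or Elane (granulocyte progenitors). These values selected the cells, so they are given only as a description.

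The series held 4 libraries of C57BL/6 mice, 1 per group, all sorted for CD45. They were 3 dpi and 14 dpi after a contusion of the thoracic cord, a sham cord dissociated in the standard way, and a sham cord dissociated with actinomycin D (ActD), an inhibitor of transcription that limits gene induction during dissociation. The sham mice underwent laminectomy without contusion and were labelled as day 0. Each group was drawn from mice of both sexes, and which animals went into which library was not given, so no library is a measure of the spread between animals and no test between groups was made. The injured cords were dissociated with ActD by the study's description, which their labels do not repeat. The matrices of 3 dpi and the standard sham carry software version 3.0.1 and those of 14 dpi and the ActD sham 3.1.0, so time after injury and software version cannot be told apart.

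Neutrophils are short-lived granulocytes that form in the bone marrow and are among the earliest blood cells to enter an injured cord. While they mature in the marrow they transcribe the proteins of their granules in sequence, from the azurophil granules (proteases, myeloperoxidase) to the specific granules (lactoferrin, cathelicidin) and the gelatinase granules (matrix metalloproteases), and they carry the finished granules into the tissue. Once in tissue they can transcribe cytokines and chemokines, many of them through NF-kB, a transcription factor whose targets include its own inhibitors.

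Over all cells of the rule, chemokines and NF-kB feedback genes were among the groups higher in the neutrophils of 3 dpi. Specific granule genes were higher in those of 14 dpi. Between the cells low in granule transcripts, defined below, the medians of the chemokines and NF-kB genes were under 2-fold (0.86 and 0.35). The stretches upstream of 4 chemokine and NF-kB feedback genes are shown because the letters of the NF-kB site, the kB consensus, occurred in them. They are read 5′ to 3′ on the strand of the gene and end near its start (RefSeq, GRCm38.p6), with the match in capitals. They lie at chr5:90903748-90903867 (plus strand, Cxcl2), chr5:90891120-90891239 (plus strand, Cxcl1), chr12:55492648-55492731 (minus strand, Nfkbia) and chr10:19015411-19015477 (minus strand, Tnfaip3).
Cxcl2: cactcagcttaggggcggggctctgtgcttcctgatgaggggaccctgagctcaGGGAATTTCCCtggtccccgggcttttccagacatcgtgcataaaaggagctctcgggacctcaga
Cxcl1: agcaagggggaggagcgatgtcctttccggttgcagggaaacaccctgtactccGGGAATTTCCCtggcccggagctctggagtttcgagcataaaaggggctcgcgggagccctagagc
Nfkbia: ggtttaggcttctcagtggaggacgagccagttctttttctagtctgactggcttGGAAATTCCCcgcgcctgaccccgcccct
Tnfaip3: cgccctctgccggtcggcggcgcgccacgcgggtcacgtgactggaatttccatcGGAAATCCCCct
In Cxcl2 and Cxcl1 the capitals hold 2 overlapping matches, and in Nfkbia and Tnfaip3 the match is on the strand opposite to the gene. The kB consensus was found on either strand of the 250 bases before the start in 7.01% of 27025 genes, in 5 of the 11 chemokines that had an entry and in 8 of the 17 genes of the NF-kB list that had one. It was also found in 5 of 22 immediate early genes and, among lists lower at 3 dpi, in 6 of 20 interferon response genes and 1 of 7 specific granule genes.

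For the genes on the side of 14 dpi, the stretches with TTGCNNAA, letters of the kind bound by C/EBP factors of the granulocyte lineage, are shown on the strand of the gene. All 3 matches are on the opposite strand, so the capitals hold the reverse complement of these letters. The stretches of Ltf and Ngp end near the start of the gene, and that of Ly6g is the far end of the window, with the match 232 to 225 bases before the start. They lie at chr9:111019161-111019280 (plus strand, Ltf), chr9:110419741-110419807 (plus strand, Ngp) and chr15:75155011-75155092 (plus strand, Ly6g).
Ltf: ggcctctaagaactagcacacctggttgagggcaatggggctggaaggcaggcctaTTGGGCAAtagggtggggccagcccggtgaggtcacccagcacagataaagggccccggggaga
Ngp: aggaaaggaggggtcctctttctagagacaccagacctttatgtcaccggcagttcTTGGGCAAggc
Ly6g: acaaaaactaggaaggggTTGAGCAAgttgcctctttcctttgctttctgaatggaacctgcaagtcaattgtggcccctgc
TTGCNNAA was found on either strand in 9.55% of the 27025 genes, in 4 of the 7 specific granule genes with an entry (Ltf, Ngp, Lcn2, Fcnb) and in 0 of the 11 chemokines. A match is a description of letters and not a binding site.

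The 3 dpi library held 10763 barcodes and 125270696 UMIs, and the 14 dpi library 11631 barcodes and 129935880 UMIs. Members made up 8.66% of the cells at 3 dpi (95% Clopper-Pearson interval 8.10 to 9.24), and the same rule took 793 of 10879 cells (7.29%, 6.81 to 7.79) at 14 dpi, 210 of 5736 (3.66%, 3.19 to 4.18) in the standard sham and 47 of 2203 (2.13%, 1.57 to 2.83) in the ActD sham. All intervals here cover counting error only. The share was thus higher in both injured cords than in either sham cord, without replicates to set that difference against.

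Levels are given as CPM, the UMIs of a gene per 1000000 UMIs of the summed cells. Of the 9528 cells, 1987 passed the threshold on S100a8 and S100a9, 1546 of these also held 3 of the 7 genes, and the excluded genes left 825. Csf1r was present in 686 of the cells so removed, and 442 of these carried exactly 1 Csf1r UMI. Just inside the S100 threshold (0.2 to 0.3% of UMIs) there were 32 cells with 8754 CPM of Il1b, and just outside it (0.1 to 0.2%) 30 cells with 5711 CPM. Members with exactly 3 of the 7 genes (163 cells) held 8610 CPM of Il1b, against 6873 in the 110 cells with exactly 2. Cells that met all but the requirement on Csf1r through a single UMI (417 cells) held 9318 CPM of Il1b and 8687 of Spp1. At 14 dpi 2030 of the 10879 cells passed the S100 threshold, 1706 also held 3 of the 7 genes, and the excluded genes left 793. Of the cells so removed, 776 held Csf1r and 231 held Elane at 14 dpi, against 37 with Elane at 3 dpi. The removed cells had a median of 11914 UMIs at 14 dpi and 2644 at 3 dpi.

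The members were the shallowest of the cell types compared. Their median was 2368 UMIs and 1124 genes per cell, against 5667 UMIs and 1335 genes for the 14 dpi neutrophils, 5938 UMIs in the standard sham and 13820 in the ActD sham. T cells of the 3 dpi library, defined by at least 2 of 5 T cell receptor genes, had a median of 3793 UMIs and the cells with a Csf1r UMI 13339. When every cell was thinned to 1000 UMIs, which left out 1 member, the order of the genes detected turned, with a median of 593 genes in the 3 dpi neutrophils, 393 in those of 14 dpi, 405 in the ActD sham and 543 in the T cells of 3 dpi. At 14 dpi, S100a8 and S100a9 alone took a median of 34.3% of the UMIs of a neutrophil, against 3.00% at 3 dpi.

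The 3 dpi library shared 22 barcodes with the standard sham, 11 with the ActD sham and 36 with 14 dpi, and 1 barcode was in the neutrophil rule of both injured libraries. Scrublet, a doublet caller, marked 7 of the 825 members (0.848%) and 19 of the 793 neutrophils of 14 dpi (2.40%), and these were kept. Among cells whose sex could be called from Xist and 4 Y-linked genes, 52.2% (153 of 293) of the 3 dpi neutrophils were male, against 87.9% (282 of 321) at 14 dpi. In T cells these shares were 36.4% and 34.6%, and in Csf1r-positive cells 64.0% and 50.6%.

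**Figure D1:**
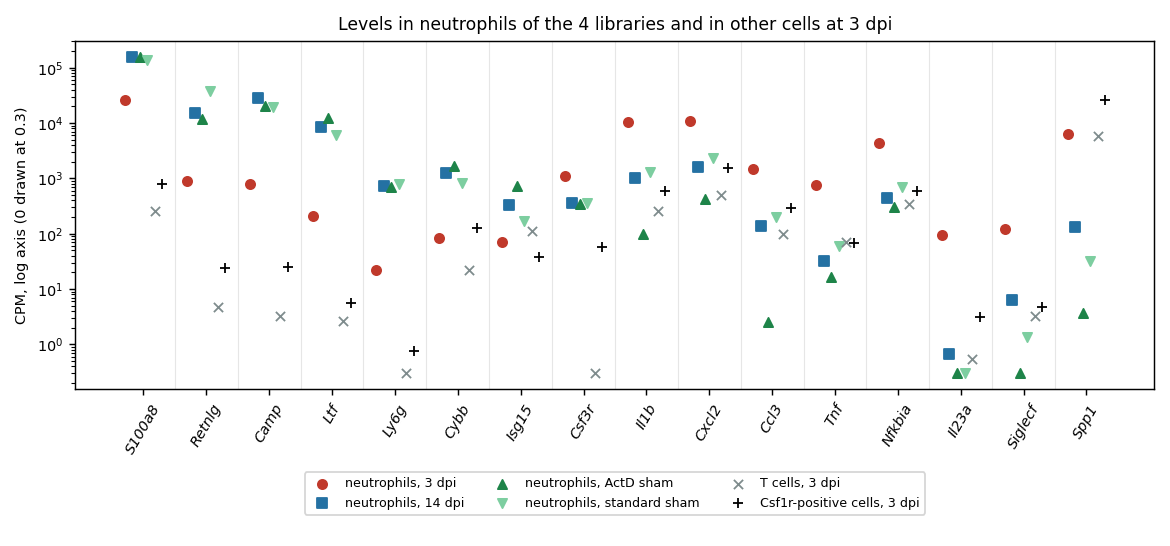
Level of 16 genes in CPM (log axis, 0 drawn at 0.3) in the neutrophils of the 4 libraries and, at 3 dpi, in T cells and Csf1r-positive cells, 1 point per library and cell type. The 3 dpi neutrophils (red circles) sit below the other 3 neutrophil samples for S100a8, Retnlg, Camp, Ltf and Ly6g and above them for Il1b, Cxcl2, Tnf and Nfkbia, and for Spp1 they sit beside the T cells.

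The label of neutrophils was checked on markers that the rule did not use. Csf3r, Il1r2 and G0s2 were part of the rule. Il1b, the remaining gene given as a marker, was detected in 98.2% of the thinned 3 dpi neutrophils and in 35.5% of the Csf1r-positive cells. Of 12 further neutrophil markers, 10 were at least 2-fold above the other cells of the library, with a median log2 ratio of 3.43. They included Clec4e, a receptor for fungal and dead-cell ligands (1675 CPM against 117 in the other cells), Lrg1, a secreted glycoprotein of granulocytes (452 against 29.96), and the formyl peptide receptor Fpr2 (183 against 11.7). Ly6g, the surface protein by which mouse neutrophils are usually stained, was low, with 48 UMIs in the 825 cells (22.5 CPM). It held 0.706 CPM in the other cells of the library.

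Markers of lymphocytes were low in the members. NK cell markers summed to 0.938 CPM. B cell markers summed to 5.63 CPM and T cell markers to 37.0 CPM, but the rule itself excluded Cd79a and Cd3e, which belong to these lists. Of the 4 eosinophil genes, Epx and Prg2 had 0 UMIs, Ccr3 had 5 and Siglecf, described further below, had 261. Macrophage markers were high, with 14979 CPM summed over 12 genes.

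Those macrophage transcripts stood at about the level found in T cells of the same library, a cell type that is not known for them. The 12 macrophage markers summed to 12006 CPM in T cells and 62982 CPM in Csf1r-positive cells. Spp1 (osteopontin), their most abundant gene, was at 6218 CPM in the neutrophils, 5759.8 in T cells and 25756 in Csf1r-positive cells. At 1000 UMIs per cell it was detected in 99.4% of the neutrophils, 98.3% of the T cells and 98.8% of the Csf1r-positive cells. Per cell, macrophage markers took a median of 1.39% of UMIs in the neutrophils and 0.995% in T cells. Genes under 2-fold of the T cells are therefore pointed out, and their source, free RNA of the library included, was not tested.

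The comparison with 14 dpi asked how the neutrophils of the early cord differed from those found later. Over the 7308 genes whose UMIs in both samples together reached 50, the median log2 ratio of CPM was 0.83 in favour of 3 dpi, and ratios are given relative to that median. At 3 dpi 1207 genes (16.5%) were at least 2-fold higher and 1320 (18.1%) at least 2-fold lower. Without subtracting the median the split was 3137 higher and 609 lower. Of the 1207 genes, 336 were also at least 2-fold above the T cells of 3 dpi and 871 were not.

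The 14 dpi neutrophils were of at least 2 kinds, which weighs on every sum over them. Camp, Ngp and Ltf, specific granule genes, were together under 0.1% of UMIs in 315 of the 793 cells (39.7%) at 14 dpi, against 809 of the 825 (98.1%) at 3 dpi. Each comparison was therefore repeated between the cells low in these granule transcripts, an alternative chosen after seeing the data. It compared 5560 genes, relative to their own median log2 ratio of 0.65, of which 971 (17.5%) were higher and 967 (17.4%) lower at 3 dpi. Of the genes higher in all cells, 594 were also higher here, and of the genes lower in all cells 567 were also lower here. Macrophage markers were higher in 8 of 11 genes over all cells (median 2.85), all 8 under 2-fold of the T cells. In the cells low in granule transcripts 6 of 11 were higher (median 2.04), and 0 were lower in either comparison. Monocyte markers were higher in 3 of 5 over all cells (median 1.79), all 3 under 2-fold of the T cells, and lower in 1. In the cells low in granule transcripts 2 of 5 were higher and 1 lower (median 0.97).

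**Figure D2:**
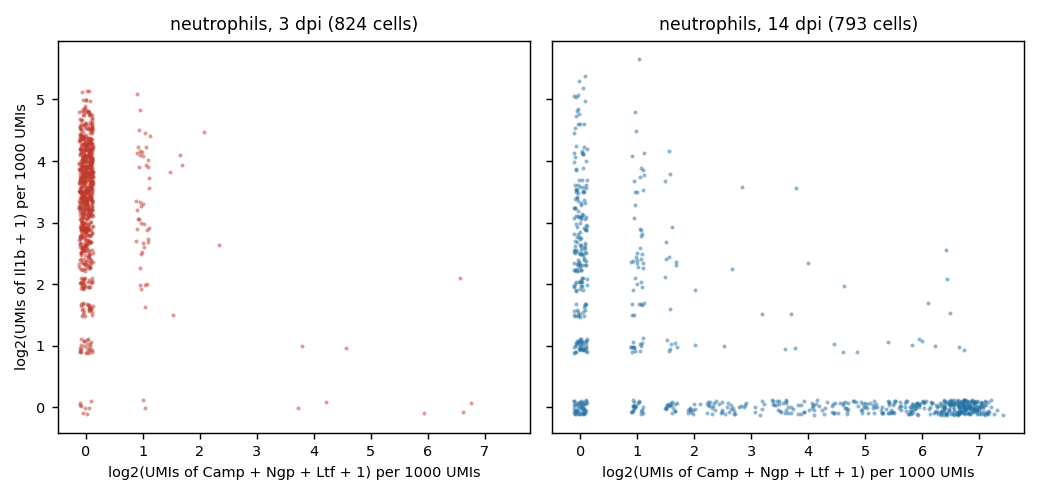
UMIs of Il1b against summed UMIs of Camp, Ngp and Ltf per cell (both as log2 of UMIs per 1000 plus 1, with points shifted slightly at random), 1 point per neutrophil, for 824 cells of 3 dpi and 793 of 14 dpi. Most 3 dpi cells lie at 0 on the granule axis with Il1b detected, whereas the 14 dpi cells divide into an arm without granule transcripts and an arm rich in them where Il1b is mostly at 0.

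Specific granule genes were the most strongly lower group, with 7 of 8 genes lower at 3 dpi and a median relative log2 ratio of −5.83. Camp, the cathelicidin antimicrobial peptide, was at 805 CPM at 3 dpi, 28587 at 14 dpi, 20661 in the ActD sham and 19742 in the standard sham, a relative log2 ratio of −5.98 (−6.05 to −5.91). Over 16 alternative settings the ratio of Camp ran from −6.86 to −3.32 and lay outside this interval in 12. Ltf, the iron-binding lactoferrin, was at 206, 8372, 12173 and 5968 CPM (−6.18, −6.32 to −6.04). The 3 dpi neutrophils thus stood apart from all 3 other neutrophil samples. Lcn2, a binder of bacterial siderophores, was at 1368, 14146, 21355 and 14150.1 CPM (−4.20). In the cells low in granule transcripts, which were selected on Camp, Ngp and Ltf, Lcn2 was still at 887 CPM against 2869 (−2.35).

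Chil3, a chitinase-like protein counted with the specific granules, behaved otherwise. It was at 3157 CPM at 3 dpi, 3027 at 14 dpi, 3746 in the ActD sham and 2947 in the standard sham, so the 4 samples were close to each other. In the cells low in granule transcripts it was at 3130 CPM at 3 dpi and 16.4 CPM (17 UMIs) at 14 dpi, a relative log2 ratio of 6.88 (6.25 to 7.71). In 3 dpi T cells it was at 172 CPM. Chil3 was detected in 70.3% of the thinned 3 dpi neutrophils and in 13.4% of the T cells.

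The later granules showed smaller values in the same direction. All 8 genes of gelatinase granules and secretory vesicles were at least 2-fold lower (median −1.24, and −0.40 without subtracting the median of all genes), among them Mmp8, neutrophil collagenase, with 136 CPM at 3 dpi, 1772 at 14 dpi, 2545 in the ActD sham and 2606 in the standard sham (−4.53, −4.71 to −4.36). Mmp8 held this value in the cells low in granule transcripts (−4.35), in which 3 of 7 genes of the list were lower. Mmp9, gelatinase B and a gene of the rule, was at 1225, 1415, 2458 and 1733 CPM (−1.04). Azurophil granule genes had few UMIs, with 3 of 4 lower, a median of −2.70 and Prtn3, proteinase 3, at 35.6 against 24.6 CPM (−0.29). The rule had removed cells with Elane, 37 at 3 dpi and 231 at 14 dpi, so these values leave out such cells. The group of NADPH oxidase subunits, which make superoxide, had 4 of 6 lower (median −1.30, and −0.47 without subtracting the median of all genes), with its catalytic subunit Cybb at 84.9 CPM at 3 dpi, 1258 at 14 dpi, 1646 in the ActD sham and 826 in the standard sham (−4.72). Between the cells low in granule transcripts 3 of the 6 were lower (median −0.91), and Cybb was at 59.4 against 93.5 CPM (−1.31).

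S100a8 and S100a9, the subunits of calprotectin, were part of the rule. S100a8 was at 25743 CPM at 3 dpi, against 154225 at 14 dpi, 159176 in the ActD sham and 138444 in the standard sham (−3.42). Retnlg, a resistin-like protein, was at 886, 15478, 11816 and 37406 CPM (−4.96), and between the cells low in granule transcripts at 581 against 21165 (−5.84). Among the 12 markers that the rule did not use, 8 were lower and 1 higher (median −1.61, and −0.77 without subtracting the median of all genes). Ly6g was at 22.5, 727, 710.0 and 777 CPM (−5.83, −6.29 to −5.44), and at 8.77 against 354 CPM in the cells low in granule transcripts (−5.95). The difference in Ly6g was therefore as large without the granule-rich cells of 14 dpi. In thinned cells, Ly6g was detected in 0.728% (0.268 to 1.58) of the 3 dpi neutrophils and 37.7% (34.3 to 41.2) of those of 14 dpi.

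Among the receptors that call neutrophils in and keep them alive, Csf3r, Il1r2 and Cxcr2 were genes of the rule and are given as a description. Csf3r, the receptor of granulocyte colony-stimulating factor, was at 1086 CPM at 3 dpi, 367 at 14 dpi, 352 in the ActD sham and 355 in the standard sham (0.73, 0.65 to 0.82), and its value in the cells low in granule transcripts was −0.84. Il1r2, a decoy receptor of interleukin 1, was at 966, 152, 209.8 and 1048 CPM (1.84), so the standard sham lay with 3 dpi, and its value in the cells low in granule transcripts was 0.37. Cxcr2, the receptor of Cxcl1 and Cxcl2, was at 684, 667, 1025 and 342 CPM (−0.80, and −1.92 in the cells low in granule transcripts). Of 14 chemoattractant receptors 4 were higher and 4 lower, and of 20 cytokine receptors 4 were higher and 0 lower. Between the cells low in granule transcripts these counts were 3 and 5 of 14, and 0 and 4 of 20. The 4 of 20 cytokine receptors are near the share of all genes in either comparison (16.5% higher in all cells, 17.4% lower in those low in granule transcripts), and their medians of 0.54 and −0.57 are under 2-fold. The higher chemoattractant receptors Cx3cr1 and C3ar1 were under 2-fold of the T cells. Ccrl2, a surface binder of chemerin, was higher as well, at 1222, 78.3, 1.26 and 79.5 CPM (3.13, 2.99 to 3.28), and at 1255 against 374 CPM (1.09) between the cells low in granule transcripts.

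Of the cytokines and growth factors, 6 of 11 genes were higher and 1 lower at 3 dpi (median 2.56). The median was 0.65 between the cells low in granule transcripts, where 4 were higher and 2 lower, and 0.97 among male cells alone (153 at 3 dpi, 282 at 14 dpi). Il1b, interleukin 1 beta, was at 10619 CPM at 3 dpi, 1009.7 at 14 dpi, 100.5 in the ActD sham and 1321 in the standard sham (2.56, 2.52 to 2.60). It stood at 263 CPM in T cells and 586 CPM in Csf1r-positive cells of 3 dpi, so the members held it far above both. Between the cells low in granule transcripts Il1b was at 10951 against 4987 CPM, a relative log2 ratio of 0.48. Relative to the median of all genes, the difference in Il1b was therefore past 2-fold with the granule-rich cells of 14 dpi included and under it without them.

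Other cytokines kept a difference of at least 2-fold in the cells low in granule transcripts. Tnf, tumour necrosis factor, was at 749 CPM at 3 dpi, 32.4 at 14 dpi, 16.3 in the ActD sham and 60.4 in the standard sham (3.69, 3.48 to 3.92), and at 774 against 82.9 CPM (2.56) in the cells low in granule transcripts. Il23a, the p19 subunit of interleukin 23, was at 93.3 CPM (199 UMIs) at 3 dpi and 0.682 CPM (4 UMIs) at 14 dpi (6.10, 4.88 to 8.15), with 0 UMIs in both sham samples and 1 UMI in the T cells of 3 dpi. It kept a value of 3.81 in the cells low in granule transcripts. Il1a, interleukin 1 alpha, was at 95.7, 1.53, 0 and 30.6 CPM (5.05). Csf1, the growth factor of macrophages, was at 560.4, 42.5, 5.02 and 34.0 CPM (2.89), and its value in the cells low in granule transcripts was 0.82. Osm, oncostatin M, was the gene of the list that was lower, at 124, 166, 111 and 139 CPM (−1.26).

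Chemokines were higher in 11 of 13 genes and lower in 1 (median 2.63), and 4 of the 11 (Ccl2, Ccl7, Ccl9, Cxcl16) were under 2-fold of the T cells. Of the 13, 6 were higher between the cells low in granule transcripts, these 4 among them, and 2 were lower, with a median of 0.86. Cxcl2, which attracts neutrophils, was at 11126 CPM at 3 dpi, 1604 at 14 dpi, 417 in the ActD sham and 2302 in the standard sham (1.96). The value between the cells low in granule transcripts was 0.09, at 11469 against 6855 CPM. Cxcl1, its close paralog, was at 129.9, 1.70, 0 and 0 CPM (5.35), with 28.8 CPM in T cells, and kept a value of 3.57. Ccl3 and Ccl4, which attract monocytes and T cells, were at 1489 and 1739 CPM at 3 dpi against 135 and 242 at 14 dpi (2.63 and 2.01), and their values in the cells low in granule transcripts were 0.86 and 0.29.

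NF-kB feedback genes were higher in 11 of 19 and lower in 1 (median 1.48), and 2 of the 11 (Nfkb2, Traf1) were under 2-fold of the T cells. Nfkbia, the inhibitor that holds NF-kB in the cytoplasm, was at 4285 CPM at 3 dpi, 445 at 14 dpi, 299 in the ActD sham and 697 in the standard sham (2.43), and had a value of 0.90 in the cells low in granule transcripts. Tnfaip3 (A20), which restrains signalling to NF-kB, was at 513, 13.1, 2.51 and 63.8 CPM (4.45), and kept a value of 2.91. Icam1, an adhesion molecule and NF-kB target, was at 307, 7.67, 2.51 and 23.1 CPM (4.47), and kept 2.78. In the cells low in granule transcripts Icam1, Ikbke, Nfkbie and Tnfaip3 were higher, Bcl3 and Nfkb1 were lower, and the median of the list was 0.35.

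Of the immediate early genes, 18 of 25 were higher and 0 lower (median 1.69), with 4 of the 18 (Jund, Dusp2, Dusp5, Klf4) under 2-fold of the T cells, and 5 were higher and 3 lower in the cells low in granule transcripts (median 0.15). Egr1, a zinc finger factor, was at 962 CPM at 3 dpi, 111 at 14 dpi, 3.77 in the ActD sham and 102 in the standard sham (2.28). Fos was at 1981, 838, 502 and 419 CPM (0.41). The list summed to 22338 CPM at 3 dpi, 5562 at 14 dpi, 2823 in the ActD sham and 6188 in the standard sham. It was also higher at 3 dpi in Csf1r-positive cells (22 of 25, median 1.88, where 12.5% of all genes were higher) and in T cells (9 of 22, median 0.76, where 6.18% were). In cells thinned to 1000 UMIs the median in neutrophils was 0.83. The part of dissociation in these values was not tested.

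**Figure D3:**
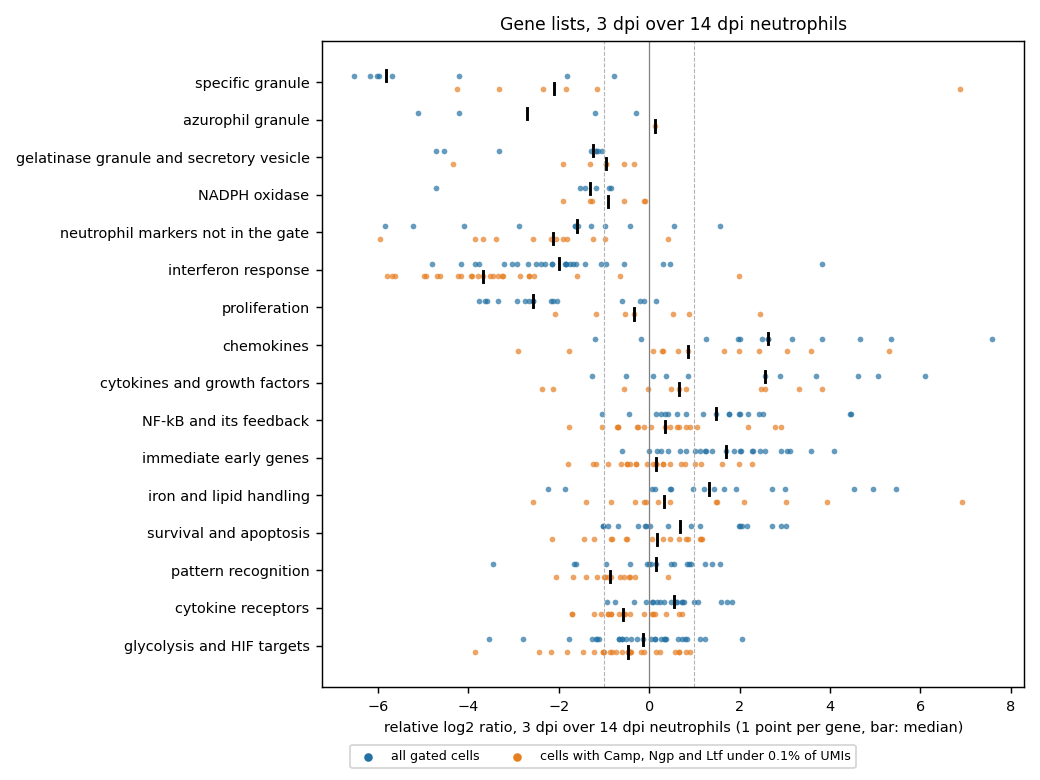
Relative log2 ratio of 3 over 14 dpi neutrophils for the genes of 16 lists, 1 point per gene and a bar at the median, in all gated cells (blue) and in the cells with Camp, Ngp and Ltf under 0.1% of UMIs (orange), with dashed lines at 2-fold. Interferon response genes lie below 0 in both (medians −2.00 and −3.68), and the medians of chemokines and cytokines move from 2.63 and 2.56 to 0.86 and 0.65.

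Interferon response genes were lower at 3 dpi in 21 of 26 and higher in 1, Cxcl10 (median −2.00). Isg15, a ubiquitin-like protein, was at 72.2 CPM at 3 dpi, 332 at 14 dpi, 734 in the ActD sham and 169 in the standard sham (−3.03, −3.28 to −2.80). Slfn4, a schlafen gene whose reads may be shared with close paralogs, was at 120.1, 625, 1225 and 202 CPM (−3.21). Between the cells low in granule transcripts 23 of 25 were lower and the median was −3.68. The list was also lower at 3 dpi in T cells (14 of 26, median −1.15, where 3.76% of all genes were lower) and in Csf1r-positive cells (22 of 27, median −1.82, where 12.2% were). Among male cells alone, 153 at 3 dpi and 282 at 14 dpi, the median in neutrophils was −0.53.

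Proliferation genes were lower in 12 of 16 (median −2.57). Cells with Elane, a gene of granulocyte progenitors, had been left out by the rule at both times. Top2a, which untangles DNA in dividing cells, was at 28.1 CPM at 3 dpi, 197 at 14 dpi, 114 in the ActD sham and 42.8 in the standard sham, and in T cells of 3 dpi it was at 94.5 CPM. In the cells low in granule transcripts 7 genes could be compared, 2 of them lower, and the median was −0.34. The histone genes Hist1h3c (−6.59) and Hist1h2ab (−5.61) were among the 15 lowest genes of the whole comparison.

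Genes of iron and lipid handling were higher in 9 of 16 and lower in 2 (median 1.32), and 3 of the 9 (Cd36, Msr1, Fabp5) were under 2-fold of the T cells. The median was 0.33 between the cells low in granule transcripts, where 6 of 14 were higher and 2 lower, and 0.81 in cells thinned to 1000 UMIs. Hilpda, a lipid droplet protein induced by low oxygen, was at 389.7 CPM at 3 dpi, 9.38 at 14 dpi, 6.28 in the ActD sham and 93.0 in the standard sham (4.53, 4.15 to 4.96), with 79.6 CPM in T cells of 3 dpi, and kept a value of 3.02 in the cells low in granule transcripts. Fth1, the ferritin heavy chain, was at 14843, 3602, 1465 and 6000.3 CPM (1.21), and its value there was −0.11. Ptgs1, cyclooxygenase 1, was at 286, 36.8, 21.4 and 29.9 CPM (2.12), and had a value of 2.99 there. Of the genes of glycolysis and HIF targets 3 of 29 were higher and 7 lower, with a median of −0.13 that became 0.70 without subtracting the median of all genes. Of the same 29 genes, 0 were higher and 8 lower between the cells low in granule transcripts (median −0.46). Slc2a3, a glucose transporter, was at 33.3, 218, 313 and 257 CPM (−3.53).

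Survival genes were higher in 8 of 18 and lower in 2 (median 0.67), and 4 of the 8 (Bcl2a1b, Bcl2a1d, Bax, Bbc3) were under 2-fold of the T cells. Between the cells low in granule transcripts 3 of 16 were higher and 3 lower (median 0.18). Bcl2a1a and Bcl2a1b, inhibitors of cell death, were at 99.9 and 277 CPM at 3 dpi against 6.82 and 20.6 at 14 dpi. Their sequences are nearly identical, so the division of reads between them is uncertain, and Bcl2a1b was at 168 CPM in T cells. Mcl1, the main survival factor of neutrophils, was at 1713, 953, 763 and 896 CPM (0.01), and its value in the cells low in granule transcripts was −1.22. MHC class II genes were higher in 4 of 6 (median 1.30), and all 4 were under 2-fold of the T cells. Their median between the cells low in granule transcripts was −0.17.

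The transcription factors of the granulocyte line were divided, with 3 of 13 higher and 3 lower (median 0.37), and the higher genes Irf5 and Bhlhe40 were under 2-fold of the T cells. Of 12 compared between the cells low in granule transcripts, 1 was higher and 3 were lower (median −0.51). Cebpe, which drives the genes of the specific granules in the marrow, was at 29.1 CPM at 3 dpi, 329 at 14 dpi, 258 in the ActD sham and 122 in the standard sham (−4.32, −4.72 to −3.97), and at 20.5 against 9.64 CPM between the cells low in granule transcripts (0.38). It thus followed the granule genes among the samples. Antioxidant genes were higher in 6 of 15 and lower in 2 (median 0.63), with 5 of the 6 under 2-fold of the T cells and a median of 0.03 between the cells low in granule transcripts. Hmox1, heme oxygenase 1, was 1 of these 5, at 804 CPM in the members and 566 in T cells. Prdx5, a peroxiredoxin, was lower, at 1034, 2351, 1977 and 2573 CPM (−2.02).

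In the remaining lists of gene function, leaving aside the marker lists of other cell types, the median was under 2-fold over all cells. Higher and lower genes numbered 5 and 2 of 12 for lipid mediators, 3 and 3 of 17 for pattern recognition, 3 and 5 of 16 for adhesion and ageing, and 2 and 1 of 13 for heat shock and stress response. They numbered 5 and 5 of 11 for proteolysis and matrix, 3 and 2 of 13 for inhibitory and regulatory genes, 2 and 0 of 5 for Fc receptors and 1 and 3 of 7 for cysteine protease inhibitors. Some of the last, the stefins, are close copies of each other whose reads may be shared. Tlr2, a receptor of bacterial lipoproteins, was at 143 CPM at 3 dpi and 80.0 at 14 dpi (0.00), and Nlrp3, the sensor of an inflammasome, was at 273 and 58.5 CPM (1.39, and −0.44 in the cells low in granule transcripts). The medians of these lists lay between −0.83 and 0.91. Both higher Fc receptor genes (Fcgr1, Fcgr2b), both higher heat shock genes (Hspa1a, Ddit4), 3 of the 5 higher genes of proteolysis and matrix (Mmp14, Spp1, Fn1), 2 of the 5 higher lipid mediator genes (Tbxas1, Hpgds) and Itgax of adhesion and ageing were under 2-fold of the T cells. Between the cells low in granule transcripts, lipid mediators lay higher, with 5 of 10 genes higher, Tbxas1 and Hpgds among them, and 1 lower (median 0.89). Of all genes 17.5% were higher in that comparison. Several of the other lists lay lower in those cells. There, 5 of 6 cysteine protease inhibitors were lower (median −1.41), as were 7 of 12 inhibitory and regulatory genes (−1.06), 7 of 16 genes of adhesion and ageing (−0.72) and 4 of 14 of pattern recognition (−0.87).

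Siglecf, a sialic acid receptor known from eosinophils and also seen on neutrophils of injured or tumour tissue, was higher at 3 dpi. It was at 122 CPM (261 UMIs) at 3 dpi, 6.31 (37 UMIs) at 14 dpi, 0 in the ActD sham and 1.36 (2 UMIs) in the standard sham, a relative log2 ratio of 3.43 (2.94 to 3.98), and kept 1.76 in the cells low in granule transcripts. It was detected in 203 of the 825 cells (24.6%, 21.7 to 27.7), in 31 of 793 (3.91%) at 14 dpi and in 5 of the 424 T cells of 3 dpi (1.18%). At 1000 UMIs per cell the shares of neutrophils were 11.4% and 1.01%. The 203 cells held a median of 3.35% of UMIs of S100a8 and S100a9, close to the 3.00% of all members.

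By the ranking of all genes with 200 or more UMIs in both samples together, genes among the highest at 3 dpi were Pf4, Ccl7, Il23a, Dpep2, Ecm1, Cxcl1, Il1a, F13a1, Fn1, Ms4a6d, Gpnmb, Spp1, Ccl2 and Prnp. Of these 14, 8 (Pf4, Ccl7, F13a1, Fn1, Ms4a6d, Gpnmb, Spp1, Ccl2) were under 2-fold of the T cells of 3 dpi. The other 6 were Il23a, Il1a and Cxcl1, given above, Dpep2, a membrane dipeptidase (144 against 1.36 CPM), Ecm1, an extracellular matrix protein (242 against 3.24), and Prnp, the prion protein (166 against 3.92). Each of the 14 was at least 2-fold higher in the cells low in granule transcripts as well.

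The 15 lowest were Stk39, Hist1h3c, Fcnb, Ltf, Ngp, Camp, Ly6g, Prss34, Ppp1r42, Olfm4, Hist1h2ab, Adpgk, Ncam1, Itgb2l and Cd177. Cd177, a surface protein of neutrophils, was at 47.4 CPM at 3 dpi, 993 at 14 dpi, 1637 in the ActD sham and 837 in the standard sham (−5.22). Olfm4, which marks a subset of neutrophils with specific granules, was at 4.22, 128, 138 and 188 CPM (−5.68). Prss34, a protease of basophils, had 2 UMIs at 3 dpi and 213 at 14 dpi, and Mcpt8, another gene of basophils, had 1 and 114. In the cells low in granule transcripts 7 of the 15 had enough UMIs to compare, and 3 of these (Camp, Ngp, Ltf) are the genes that selected those cells. The other 4 (Ly6g, Prss34, Adpgk, Cd177) were lower there as well. Of the UMIs of 14 dpi, 203 of 213 for Prss34 and 108 of 114 for Mcpt8 were in the cells low in granule transcripts. Whether basophils were among these cells was not tested.

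**Figure D4:**
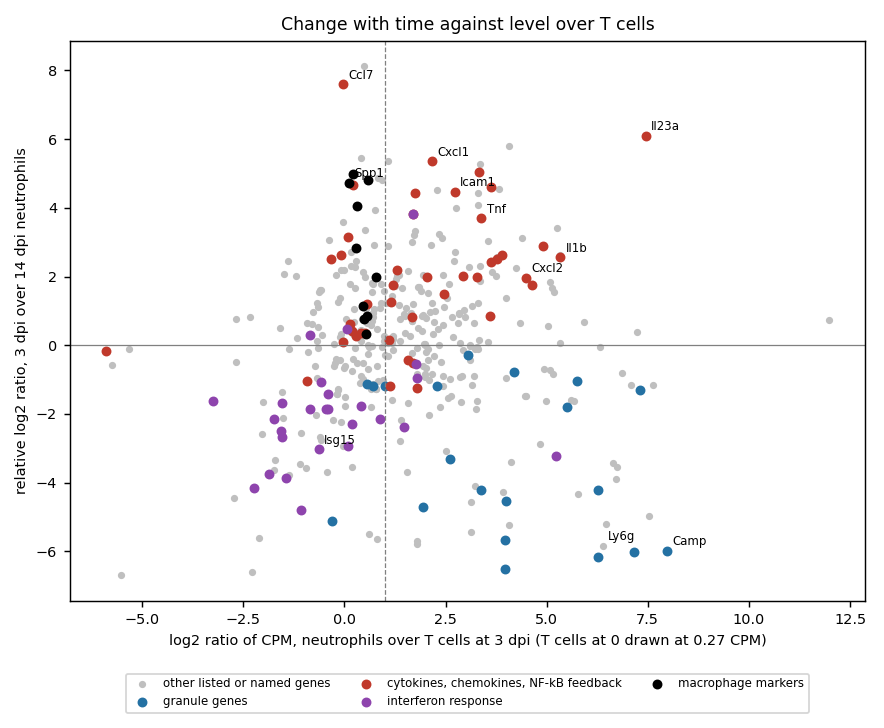
Relative log2 ratio of 3 over 14 dpi neutrophils against the log2 ratio of neutrophils over T cells at 3 dpi for the listed and named genes, 1 point per gene, with a dashed line at 2-fold above T cells. Ccl7 and Spp1 are high on the vertical axis but left of the line, and Il23a, Tnf, Icam1, Il1b and Cxcl2 lie right of it.

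Against the 8703 other cells of their own library, the comparison that the rule itself used, 2229 of 12990 genes (17.2%) were at least 2-fold higher in the neutrophils and 2403 (18.5%) lower, which is given as a description. Among genes detected in at least 25% of the members and outside the rule, the highest ratios were those of Lcn2, H2-Q10, Acod1, Pglyrp1, Wfdc21, Mirt1, Il1b, Fpr2, Lrg1, Clec4e, Igfbp6, C3, Slfn1, Hp and Txnip. They ran from 4.84 for Lcn2 to 3.57 for Txnip on the log2 scale, and Slfn1 was under 2-fold of the T cells. Acod1, the enzyme that makes itaconate, was at 358 CPM in the neutrophils and 14.5 in the other cells, and 24.4% of thinned members held it against 0.472% of the T cells. Txnip, an inhibitor of thioredoxin, was at 1175 CPM against 98.5 in the other cells and 333 in T cells.

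The lowest ratios among genes with at least 1000 UMIs were those of Dock1, Col1a1, Prelid2, Pld2, Ecscr, Akr1e1, Ankrd26, Dip2c, B3glct and Enpp1. Dock1, a gene of engulfment of dead cells, had 2 UMIs in the members (0.938 CPM against 14.5, a log2 ratio of −3.63, −7.00 to −2.10). Each of the 10 was under 2-fold of the T cells too. The genes with the most UMIs in the members were Malat1, a nuclear noncoding RNA (36088 CPM, 9061 at 14 dpi), Fth1, Tmsb4x, Cxcl2, Il1b, Ftl1, Actb, Spp1, Tyrobp, Apoe, Lyz2, H3f3b, Nfkbia, Ctsd and Srgn, and 7 of these 15 were under 2-fold of the T cells. The mitochondrial share had a median of 1.36% of UMIs in the members and 0.541% in the neutrophils of 14 dpi.

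Despite their low UMI counts, the neutrophils held a large part of several cytokine transcripts of the 3 dpi library. They carried 1.74% of its UMIs. Of the Il23a UMIs of the library 31.8% (28.2 to 35.6) were in them, of Il1b 23.2% (22644 of 97615 UMIs), of Tnf 15.9%, of Csf1 14.98% and of Il1rn, the antagonist of the interleukin 1 receptor, 11.3%. For chemokines the shares were 11.0% for Cxcl2, 8.21% for Ccl3, 5.40% for Cxcl3 and 5.38% for Ccl4. Ccl2, which attracts monocytes, was below the share of all UMIs, at 0.591%, and Osm was near it at 2.09%. At 14 dpi the neutrophils carried 4.55% of the UMIs, with 46.3% of Cxcl2, 32.7% of Il1b, 28.0% of Osm, 12.2% of Tnf, 3.06% of Ccl4 and 2.54% of Ccl3. For Il1rn the 14 dpi share was 21.1%, for Il23a 5.63% (4 of 71 UMIs) and for Csf1 3.11%. The shares of Il1b and Tnf were thus set against a smaller share of all UMIs at 3 dpi. The shares depend on the rule. Over the 9 alternative definitions of cells they ran from 19.8 to 45.2% for Il1b, 12.8 to 31.4% for Tnf, 8.74 to 24.04% for Cxcl2 and 6.41 to 17.01% for Ccl3 at 3 dpi, each highest without the requirement on the excluded genes. Il1b UMIs in the whole library numbered 97615 at 3 dpi and 18086 at 14 dpi.

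Transcripts of Il1b, Cxcl2 and Nfkbia were spread over most members, and those of several other cytokines over fewer. In cells thinned to 1000 UMIs, Il1b was detected in 98.2% (97.0 to 99.0) of the 3 dpi neutrophils, 38.2% of those of 14 dpi, 17.5% of the T cells and 35.5% of the Csf1r-positive cells of 3 dpi (99.3% of members before thinning). Cxcl2 was detected in 92.0%, 44.8%, 29.95% and 51.8%, and Nfkbia in 89.3%, 32.8%, 26.2% and 41.3%. These genes were thus found in nearly every member. Tnf (44.3% of members, 3.40% at 14 dpi, 5.90% of T cells), Ccl3 (52.2%, 7.57%, 11.1%), Ccl4 (43.6%, 7.31%, 18.6%) and Csf1 (34.8%, 5.67%, 2.12%) were found in some. Il23a was found in 7.77% of members and 0.378% of the neutrophils of 14 dpi, and in 0 of 424 T cells, which allows a share of up to 0.866% at this depth by the upper Clopper-Pearson limit (these T cells held 1 Il23a UMI before thinning).

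Among genes outside the rule, the granule genes Camp and Ngp had the highest Fano factors. This factor, the variance over the mean of UMIs in thinned cells, had a median of 1.05 over 2834 genes, and was 37.4 for Camp, 29.0 for Ngp, 16.4 for Saa3, 15.8 for Cxcl2, 11.8 for Wfdc17 and 11.7 for Ccl4. Camp was detected in 2.79% of the thinned cells and reached 53 UMIs per 1000. The 83 members richest in Camp, Ngp and Ltf held 99.3% of the UMIs of these genes, against 51.6% in the 80 richest cells of 14 dpi, and 715 members had none. Saa3, an acute phase protein, was in 11.0% of the thinned members and 4.25% of the T cells. Cxcl2 ran from 0 to 294 UMIs per 1000, with a median of 9, and Il1b from 0 to 35 with a median of 10.

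**Figure D5:**
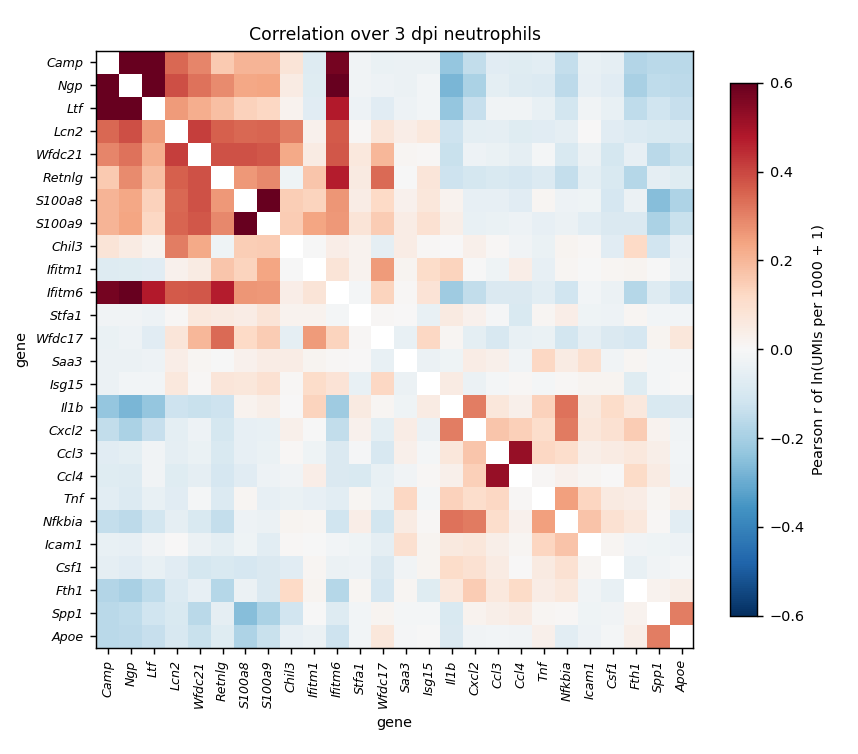
Pearson correlation over 824 neutrophils of 3 dpi between 26 genes (natural log of UMIs per 1000 plus 1), on a colour scale from −0.6 to 0.6 with larger values drawn at its ends. Granule genes form the block at the upper left (Ngp with Camp 0.89), and Il1b, Cxcl2 and Nfkbia, as well as Ccl3 and Ccl4, form weaker pairs (0.31 to 0.52).

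Over the 824 thinned cells, which share a library and are sparse in most genes, Ngp and Camp correlated at 0.89, S100a8 and S100a9 at 0.80, and Ltf and Ngp at 0.72. Il1b was negative against Ngp (−0.28) and Camp (−0.23), although Il1b was detected in 18 of the 23 cells with Camp and 27 of the 33 with Ltf. Ccl3 and Ccl4, neighbouring genes of 1 chemokine cluster, correlated at 0.52, and Ccl4 was detected in 60.2% of the 430 cells with Ccl3 and in 25.4% of the 394 others. Nfkbia correlated with Il1b at 0.33 and with Cxcl2 at 0.31. S100a8 was negative against Spp1 (−0.26) and Malat1 (−0.33). These are descriptions of cells of 1 library.

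The same contrast of 3 over 14 dpi in other cells of the libraries showed which lists also differed there. Of all genes, 6.18% of 7635 were higher and 3.76% lower in T cells, and 12.5% of 13906 were higher and 12.2% lower in Csf1r-positive cells. Chemokines were higher in T cells (9 of 12, median 3.53) and in Csf1r-positive cells (9 of 18, median 1.07), and cytokines in T cells (5 of 7, median 1.59) and Csf1r-positive cells (12 of 21, median 1.40). Il1b itself had relative log2 ratios of 5.44 in T cells (263 against 6.75 CPM) and 2.77 in Csf1r-positive cells (586 against 99.8 CPM). Specific granule genes were lower in both as well, with medians of −3.50 in T cells and −5.64 in Csf1r-positive cells, where Camp was at 25.1 against 2452 CPM. At 14 dpi these genes summed to 663 CPM in T cells and 6763 CPM in Csf1r-positive cells. The Csf1r-positive cells include those that passed the S100 and 7-gene steps of the rule but held Csf1r. These were 686 of 6945 at 3 dpi and 776 of 8165 at 14 dpi, and their part in the values was not tested. The free RNA of a library carries the transcripts of its abundant cells, and its part in these values was not tested.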

How the data were processed

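CD45+ cells of 4 mouse spinal cord libraries were captured with the 10× Chromium 3′ method (v.3 chemistry). For each library, the authors deposited a sparse matrix of UMI counts per gene and barcode, without normalization and before the filters of the study. The submitters' processing notes name Cell Ranger, its version not given in the sources used here, and the mm10 build. The filters of the study (at least 600 genes, at most 10% mitochondrial UMIs) and the neutrophil rule were applied to these counts. The removal of cells with myeloid and lymphoid markers and DoubletFinder were not used here, and Scrublet (scanpy 1.11.5, 0.8% per 1000 cells) was an alternative. T cells held at least 2 of Cd3e, Cd3d, Cd3g, Trac and Trbc2 and no UMI of Csf1r, Cd79a or Csf3r, and Csf1r-positive cells held a Csf1r UMI and were not in the neutrophil rule.

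UMIs were summed per library and cell type, so that deep cells weigh more, and scaled to CPM. With 1 library per group there was no test. Log2 ratios used 0.5 added UMIs, genes reaching 50 UMIs over both sums, and the median over those genes as 0, and a gene was called at 2-fold. Ratios carry exact conditional Poisson intervals and shares exact Clopper-Pearson intervals, at 95%. The Poisson intervals take UMIs as independent and leave out the spread between cells, so they are too narrow for genes concentrated in few cells. Fewer cells of a kind and less RNA per cell cannot be told apart in such sums. Cells were thinned to 1000 UMIs once for shares, Fano factors (genes with a mean of at least 0.05) and correlations. Named genes were the 15 highest and 15 lowest over 14 dpi (at least 200 UMIs), the 15 highest over other cells (a UMI in at least 25% of members), the 10 lowest (at least 1000 UMIs), the 15 with most UMIs and the 15 highest Fano factors, leaving out the 13 genes of the rule and mitochondrial, ribosomal protein, haemoglobin, immunoglobulin, sex-linked and unnamed genes, and members of 41 lists (464 genes, of which Clec7a and Il36g were not found). The members, lists and markers were chosen with earlier results of these data known. Some genes are not reported here. The interval code was tested on simulated data. Python 3.11.15, numpy 2.4.6, scipy 1.17.1, pandas 2.3.3, R 4.3.3 and edgeR 4.0.16 (TMM factors only) were used.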

Additional observations from a re-analysis of the deposited data

Results flagged for a closer look

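Neutrophil markers outside the rule had a median relative log2 ratio of 3 over 14 dpi of -1.61 in neutrophils and 1.14 in T cells, where 6 of the 12 genes had enough UMIs, and that difference in direction was not tested. Microglia markers had a median of 1.06 in neutrophils, where 3 of the 4 higher genes were under 2-fold of the T cells, and of -1.98 in Csf1r-positive cells, and this was not tested either. Among barcodes with 300 to just under 600 genes, which the filter on genes leaves out, 33 of 549 (6.01%, 4.17 to 8.34) met the rest of the neutrophil rule at 3 dpi, against 24 of 322 in the standard sham, 19 of 297 at 14 dpi and 0 of 70 in the ActD sham, which allows up to 5.13%.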

How the results depend on the processing

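There was 1 library per group, so no library could be left out. No paired analysis was possible because no group had replicates. The share of 3 dpi cells in the neutrophil rule (8.66%) was 6.77% with at least 1000 genes, 10.3% with at most 5% mitochondrial UMIs, 7.76% with S100a8 and S100a9 at 0.5%, 9.81% and 6.95% with 2 and 4 of the 7 genes, 16.2% without the excluded genes and 9.39% without the barcodes that Scrublet marked. Without the excluded genes, 1404 genes were higher and 812 lower than in other cells of the library. Against 14 dpi (1207 higher, 1320 lower), the counts were 3137 and 609 without centring, 640 and 663 in thinned cells, 549 and 680 with at least 200 UMIs in the pair, and, chosen after seeing the data, 692 and 878 in male cells and 336 and 611 among genes at least 2-fold above T cells. TMM scaling gave 977 and 1598. Without the excluded genes, which compared 1546 cells of 3 dpi with 1706 of 14 dpi, the counts were 1013 and 1414. Only 527 of the 1207 higher genes and 887 of the 1320 lower genes were called again there. The alternatives covered 29 of the lists, and 14 of these had a median past 2-fold. Of those 14, 2 turned in direction in the cells low in granule transcripts, MHC class II (-0.17) and azurophil granule (0.13, from 1 gene). Outside the 29, myeloid progenitor markers, among them Elane, which the rule excluded, also turned there, from -1.20 to 0.13 (1 gene). Oligodendrocyte markers went from 1.11 to -0.003. Monocyte (0.97), microglia (0.52), eosinophil (1.76) and basophil (-7.81) markers kept their direction there, and erythroid markers could not be compared. The 30 genes named in the comparison with 14 dpi kept their direction and their 2-fold difference in each of 462 values. They were picked as the extremes of the same data and most alternatives reuse the same cells, so this outcome was largely set by the choice. Values with too few UMIs were left out, and only 7 of the 15 lowest were compared in the cells low in granule transcripts. Of 236 values for those 14 lists, 25 were under 2-fold, of which 10 were in the cells low in granule transcripts. The others were 3 medians without centring (gelatinase granule -0.40, NADPH oxidase -0.47, neutrophil markers -0.77), 3 by the mean of per-cell CPM (NF-kB 0.85, immediate early 0.65, iron and lipid handling 0.71), 3 in thinned cells (immediate early 0.83, iron and lipid handling 0.81, proliferation -0.99), 2 in male cells (cytokines 0.97, interferon response -0.53), 3 without the excluded genes (MHC class II 0.33, NADPH oxidase -0.76, gelatinase granule -0.65) and 1 with 4 of the 7 genes (MHC class II 0.91). The cause of these differences was not tested. Depth limits the members, at a median of 2368 UMIs.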
